A study of Saccharomyces cerevisiae with 30 samples.

Results

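The middle of the head of yeast 18S rRNA, positions 1265 to 1445 counted from the 5' end of 18S, was examined by DMS-MaPseq. The stretch of 181 nucleotides holds helices 34 to 38 and their three-way junction. Its 73 A and C were taken, since dimethyl sulfate (DMS) is read mainly at these bases, and 69 of them (38 A and 31 C) had an effective read depth of at least 1000 in all 30 libraries. These 69 nucleotides are the ones described here, out of 776 A and C of 18S with that depth. C1284, A1287, A1296 and A1300 were left out, with lowest depths of 522, 565, 788 and 990. The shallowest nucleotide kept was C1280, at 1033.

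Small ribosomal subunit precursors (pre-40S) were purified from Saccharomyces cerevisiae through a TAP tag on Rio2, and mature 40S subunits were probed beside them. Rio2 is an assembly kinase, and S15 is a ribosomal protein of the head. The 4 particles were WT pre-40S with 5 replicates, S15_YRR pre-40S with 3, pre-40S from Rio2_Δloop cells with 4 and mature 40S with 3. All cells grew in YPD to mid-log phase, each replicate had a library treated with 1% DMS at 30 °C for 5 min and an untreated control library, and all replicates were described as biological. The labels used here do not define the YRR change, the extent of the loop deletion or how mature 40S was purified, and they do not say which libraries were made together.

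DMS methylates the pairing face of A and C where it is free, and the reverse transcriptase leaves a mutation there. A base in a helix, or one covered by protein or by other RNA, is therefore read at a low rate. In the mature ribosome helix 34 lines the path of mRNA into the decoding site and is contacted by the protein Rps3. The head matures late in assembly, and assembly factors, Rio2 among them, sit on precursors near the future tRNA sites.

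The whole stretch is printed first, to place the nucleotides named below. Capitals mark the 10 nucleotides whose DMS rate was at least 2 times the untreated rate, averaged over the particles, and which therefore entered the main test. The letters are those of the deposited reference sequence.
Positions 1265 to 1445: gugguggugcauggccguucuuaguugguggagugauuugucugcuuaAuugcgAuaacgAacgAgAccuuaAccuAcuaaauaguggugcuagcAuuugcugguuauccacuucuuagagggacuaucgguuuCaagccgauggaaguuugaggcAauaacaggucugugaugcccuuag
The next lines show shorter stretches around the nucleotides that the results turn on, with those nucleotides in capitals. The first holds A1313, A1325, A1331 and A1337, which lie close together. The others surround the highest A, the only C that passed the filter, A1421 and C1274.
Positions 1307 to 1345: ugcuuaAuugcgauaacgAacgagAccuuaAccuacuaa
Positions 1351 to 1369: ggugcuagcAuuugcuggu
Positions 1390 to 1408: uaucgguuuCaagccgaug
Positions 1412 to 1430: guuugaggcAauaacaggu
Positions 1265 to 1283: gugguggugCauggccguu

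The median effective depth over the stretch was 2827 to 19493 per library, and single positions ranged from 1033 to 31751. The untreated profiles fell into 4 sets of libraries, joined at a correlation of at least 0.7 over 1666 positions. Correlations were 0.845 to 0.947 within sets and 0.286 to 0.634 between them. The largest, set 1, was made up of the whole S15_YRR group, mature replicates 2 and 3, Rio2_Δloop replicates 3 and 4, and replicates 4 and 5 of WT. Rio2_Δloop replicates 1 and 2 joined replicates 2 and 3 of WT in set 2. The first replicate of WT and the first of mature 40S each stood alone. In WT replicate 1 the DMS rate was lower than the untreated rate, by a mean of -0.357 percentage points over the A of 18S, against 0.202 to 0.586 in the other replicates. The untreated library of that replicate had a mean rate of 1.20% over A of the rest of 18S. In the other replicates this rate was 0.424% to 0.643%. The cause was not tested. WT means, counts and calls that shift without WT replicate 1 are also given without it.

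The signal used below is the mutation rate of the DMS library minus that of its untreated control, in percentage points. Most of the stretch carried little signal. Over the 69 nucleotides the median of the mean signal was 0.0488 points, 16 were above 0.2 and 19 were below 0. A carried more than C, with a median of 0.157 over the 38 A and 0.00552 over the 31 C. The filter was passed by 9 of 38 A (23.7%) and 1 of 31 C (3.23%), beside 18.4% of A and 10.2% of C in the rest of 18S, a difference that was not tested. A1337 was just inside the filter with a ratio of 2.21, and A1388 just outside with 1.94.

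Averaged over the 38 A, the signal was 0.195 ± 0.309 points (SD, n = 5) in WT pre-40S. For S15_YRR it came to 0.362 ± 0.0651 (n = 3), for Rio2_Δloop to 0.307 ± 0.0805 (n = 4) and for mature 40S to 0.252 ± 0.0437 (n = 3). The WT value was 0.311 without replicate 1. The particle ranges overlapped: single WT replicates ran from -0.270 to 0.580, which takes in every other replicate. In the rest of 18S the corresponding means were 0.203 (0.344 without WT replicate 1), 0.431, 0.390 and 0.366 points.

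**Figure D1:**
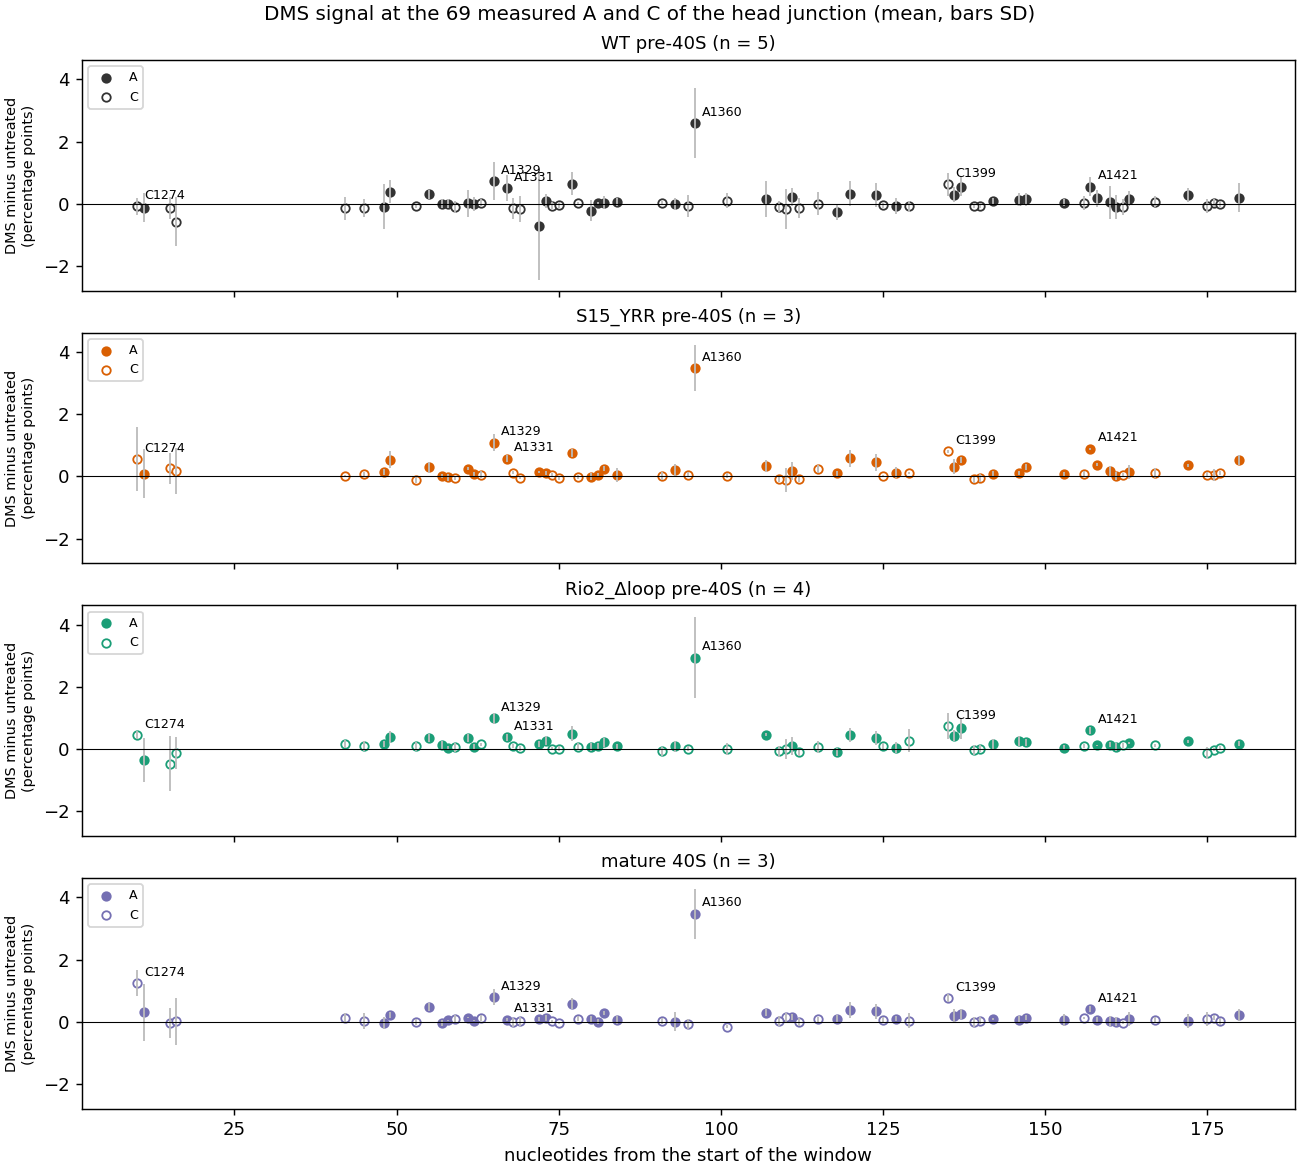
DMS rate minus untreated rate in percentage points (y axis) at the 69 nucleotides, by distance in nucleotides from the start of the stretch (x axis), in 1 panel per particle. Filled points are A, open points are C, and bars are the SD over 5, 3, 4 and 3 replicates; A1360 stands above every other nucleotide in each panel, and A1331 lies near 0 only in mature 40S.

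A1360 was the most reactive nucleotide of the stretch in all particles. Its signal in WT replicates 1 to 5 was 1.77, 2.05, 1.998, 4.53 and 2.67 points. The S15_YRR replicates gave 3.97, 3.84 and 2.64, those of Rio2_Δloop 2.08, 1.71, 3.44 and 4.54, and mature 40S gave 2.79, 4.36 and 3.28. The particles overlapped throughout, and the untreated rate was at most 0.731% in any library. On a scale relative to each library's own reactive A and C, A1360 ranked 11 of 776 in both WT and S15_YRR, 9 with the Rio2 loop deleted and 8 for mature 40S. The log2 change from WT was 0.14 in S15_YRR (SE 0.124), 0.11 in Rio2_Δloop (SE 0.114) and 0.25 in mature 40S (SE 0.124), with edgeR adjusted p of 0.720, 0.613 and 0.181.

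A1329, C1399 and A1341 followed. A1329 had mean signals of 0.732 ± 0.609, 1.09 ± 0.275, 0.994 ± 0.177 and 0.794 ± 0.259 points (SD) for WT, S15_YRR, Rio2_Δloop and mature 40S. C1399, the only C that passed the filter, had 0.628 ± 0.368, 0.815 ± 0.0487, 0.735 ± 0.413 and 0.770 ± 0.130 in the same order. A1341 had 0.649 ± 0.363, 0.757 ± 0.138, 0.495 ± 0.243 and 0.580 ± 0.181. Without WT replicate 1 the WT means of A1329, C1399 and A1341 were 0.951, 0.711 and 0.693 points. At each of these the particles overlapped, and none of them passed the threshold in any of the 6 comparisons between particles. The order among A1329, C1399 and A1341 did not hold beyond their spread.

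Of the other high nucleotides, A1401 ranged from 0.0579 to 1.10 points over all replicates, A1384 from -0.0813 to 0.886, A1388 from -0.150 to 0.900 and A1319 from 0.0892 to 0.602. A1319 passed the filter and was called in no comparison. A1401, A1384 and A1388 did not pass it.

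**Figure D2:**
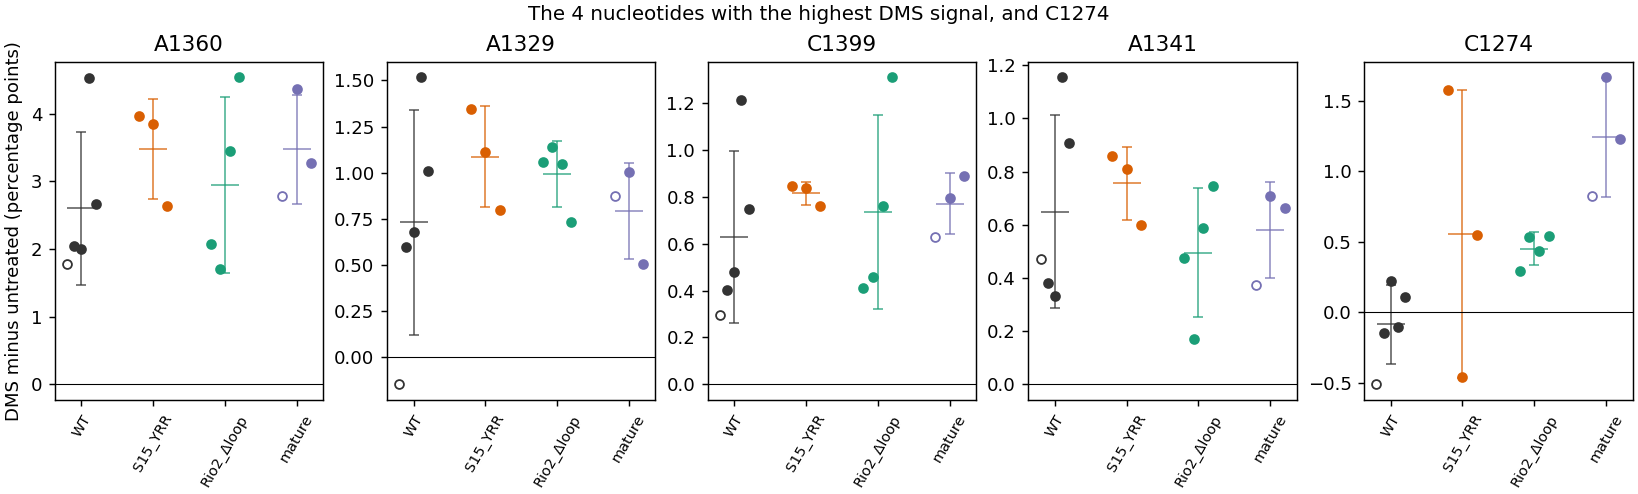
DMS rate minus untreated rate in percentage points (y axis) in each replicate of the 4 particles (x axis) at A1360, A1329, C1399, A1341 and C1274, 1 panel each with its own scale. Dashes and bars are the mean and SD; open points are the WT and mature replicates that stand alone; at the first 4 nucleotides the particles overlap, and at C1274 all mature replicates, from 0.822 to 1.66, lie above all WT replicates.

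The fit of edgeR compared the DMS libraries at 115 A and C of 18S, 10 of them in the stretch. It did not take the untreated libraries into account. A joint fit with them gave no calls among the 10 in the comparisons with mature 40S (closing section). In the fit of the DMS libraries alone, mature 40S differed from WT pre-40S at 3 of the 10. A1331, A1313 and A1421 were all lower in mature 40S. Over 18S, 26 of 115 passed (22.6%), 17 of them lower (14.8%). The stretch held 3 lower of 10, and this count is not set apart from the background by any test. The median log2 change was -0.47 over the 10 and 0.03 over the 115. No other nucleotide of the 10 passed. An unadjusted p under 0.05 was found at 5 of the 10 and at 36 of 115 over 18S.

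A1331 showed the largest change of the 10. Its DMS rate in WT replicates 1 to 5 was 0.572%, 0.805%, 0.812%, 1.12% and 0.636%, and in mature replicates 1 to 3 it was 0.172%, 0.179% and 0.0696%. Every WT library was above every mature library. The lowest WT rate rested on 17 mutations in 2971 reads, with a 95% exact binomial interval of 0.334% to 0.915%. The highest mature rate rested on 10 in 5579, with an interval of 0.0860% to 0.329%; these intervals cover counting error only. The DMS rate in S15_YRR was 0.590%, 0.696% and 0.628%, and in Rio2_Δloop 0.645%, 0.594%, 0.442% and 0.615%. All 12 pre-40S libraries were thus above all mature libraries. Relative to WT, mature 40S stood at -2.51 on the log2 scale (SE 0.360, edgeR adjusted p = 1.17e-05). The same difference was -2.03 (SE 0.377, adjusted p = 0.000705) from Rio2_Δloop and -1.94 (SE 0.398, adjusted p = 0.000968) from S15_YRR. Without WT replicate 1 the difference from WT was -2.52 (adjusted p = 8.2e-06). These 3 comparisons share the mature libraries.

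After subtraction of the untreated rate, A1331 had -0.0885, 0.445, 0.538, 1.05 and 0.569 points in WT and 0.0440, 0.113 and 0.0536 in mature 40S. WT replicate 1, with an untreated rate of 0.661%, was the exception that made the groups overlap. Within set 1, where untreated rates were 0.0694% and 0.0670% in WT and 0.0661% and 0.0160% in mature 40S, DMS rates were 1.12% and 0.636% against 0.179% and 0.0696%. When the untreated libraries were fitted together with the treated ones, the log2 change from WT was -1.32 and the adjusted p 0.368. With limma on log2 reactivity it was -1.53 and 0.0681. Against Rio2_Δloop the call was lost in both too, with -0.94 (adjusted p = 0.548) in the joint fit and -1.47 (0.142) with limma. Against S15_YRR it was lost with log2 changes near that of the reported fit, -2.26 (0.172) and -1.77 (0.0731).

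A1313 and A1421 changed less. The signal at A1313 was -0.206, 0.426, 0.343, 0.792 and 0.595 points in WT and 0.318, 0.160 and 0.157 in mature 40S. The mature values lay below those of WT replicates 2 to 5, and above that of replicate 1. Its DMS rate changed by -1.22 on the log2 scale (SE 0.334, edgeR adjusted p = 0.00826), and the joint fit with untreated libraries turned the sign, to 0.06 (adjusted p = 0.997). Without mature replicate 2 the adjusted p was 0.0754, and without WT replicate 1 the change was -1.20 (adjusted p = 0.00831).

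A1421 had 0.304, 0.249, 0.503, 0.962 and 0.739 points in WT and 0.308, 0.494 and 0.410 in mature 40S, which overlap. In S15_YRR it had 0.878, 0.875 and 0.921 points, above all mature values. Its log2 change in mature 40S was -0.51 from WT (SE 0.179, edgeR adjusted p = 0.0414) and -0.70 from S15_YRR (SE 0.197, adjusted p = 0.0109). Against WT the call did not survive 5 of 8 single omissions, those of WT replicate 1, 4 or 5 and of mature replicate 1 or 2. It was lost in 14 of the 15 other settings tried, with adjusted p up to 0.519.

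**Figure D3:**
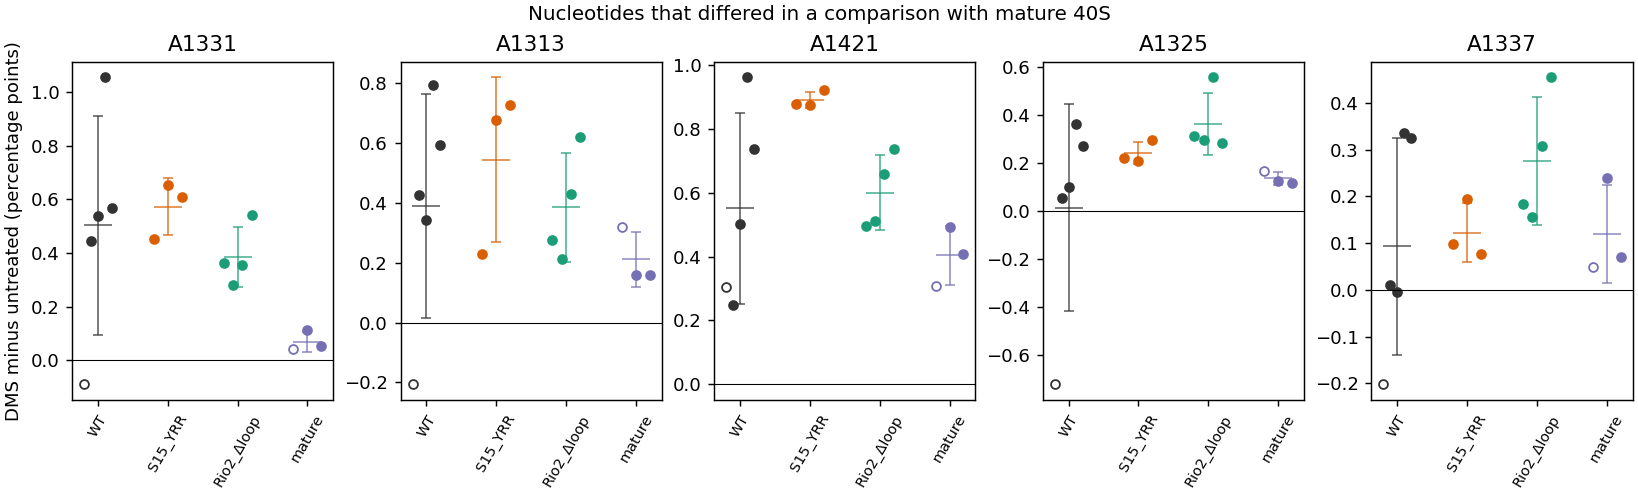
DMS rate minus untreated rate in percentage points (y axis) in each replicate of the 4 particles (x axis) at the 5 nucleotides that passed the threshold in a comparison with mature 40S, 1 panel each with its own scale. Dashes and bars are the mean and SD, and open points are the WT and mature replicates that stand alone; at A1331 the mature replicates lie at 0.0440 to 0.113, below every pre-40S replicate except WT replicate 1.

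Against Rio2_Δloop pre-40S, mature 40S was lower at A1331, A1325 and A1337, 3 of the 10, where 20 of 115 passed over 18S (17.4%), 17 of them lower (14.8%). The signal at A1325 was 0.312, 0.295, 0.555 and 0.281 points in Rio2_Δloop and 0.164, 0.125 and 0.115 in mature 40S, with no overlap. On the log2 scale A1325 was lower by -1.05 (SE 0.304, edgeR adjusted p = 0.0199). The adjusted p was 0.0606, 0.128 and 0.0847 without Rio2_Δloop replicate 1, mature replicate 2 and mature replicate 3, and 9 of 15 other settings lost the call (adjusted p up to 0.714). A1337 had 0.184, 0.156, 0.309 and 0.455 points in Rio2_Δloop and 0.0490, 0.240 and 0.0712 in mature 40S, which overlap. Its log2 change of -1.14 (SE 0.392) had an edgeR adjusted p of 0.0499. The call was lost whichever of the 7 replicates was omitted and in 12 of 15 other settings. A1325 and A1337 had the lowest ratios of the 10 in the signal filter, 2.24 and 2.21. Their mean DMS rates were highest in Rio2_Δloop, at 0.463% and 0.383%, so this group helped them pass. Their calls and the count of 3 of the 10 are therefore not independent of the filter. Without the filter the edgeR adjusted p was 0.230 and 0.305.

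Against S15_YRR pre-40S, mature 40S was lower at A1331 and A1421, 2 of the 10, where 20 of 115 passed over 18S (17.4%) and 15 of them were lower (13.0%). The call at A1421 was lost without S15_YRR replicate 2 or 3 and without mature replicate 1 or 2, with adjusted p of 0.0521 to 0.0622, and in 8 of 15 other settings.

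Neither mutant pre-40S differed from WT pre-40S at any of the 10 nucleotides in the edgeR fit without a term for the library sets. For S15_YRR, 1 of the 10 (A1337) and 10 of 115 over 18S had an unadjusted p under 0.05. Over 18S 1 of 115 passed (0.87%). For Rio2_Δloop, 2 of the 10 (A1313 and A1341) and 28 of 115 over 18S had an unadjusted p under 0.05. Over 18S 16 of 115 passed (13.9%). With the library set as a term A1331 was lower in Rio2_Δloop than in WT, by -0.53 on the log2 scale (adjusted p = 0.0391). Between S15_YRR and Rio2_Δloop none of the 10 passed, and 7 of 115 over 18S did (6.09%). Here 2 of the 10 (A1325 and A1337) had an unadjusted p under 0.05, beside 20 of 115. With the set as a term A1337 was lower in S15_YRR than in Rio2_Δloop, by -1.17 on the log2 scale (adjusted p = 0.0123), and without the libraries that stand alone by -1.08 (adjusted p = 0.0141). DESeq2 without that term called 0 of the 10 in each of these 3 comparisons.

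**Figure D4:**
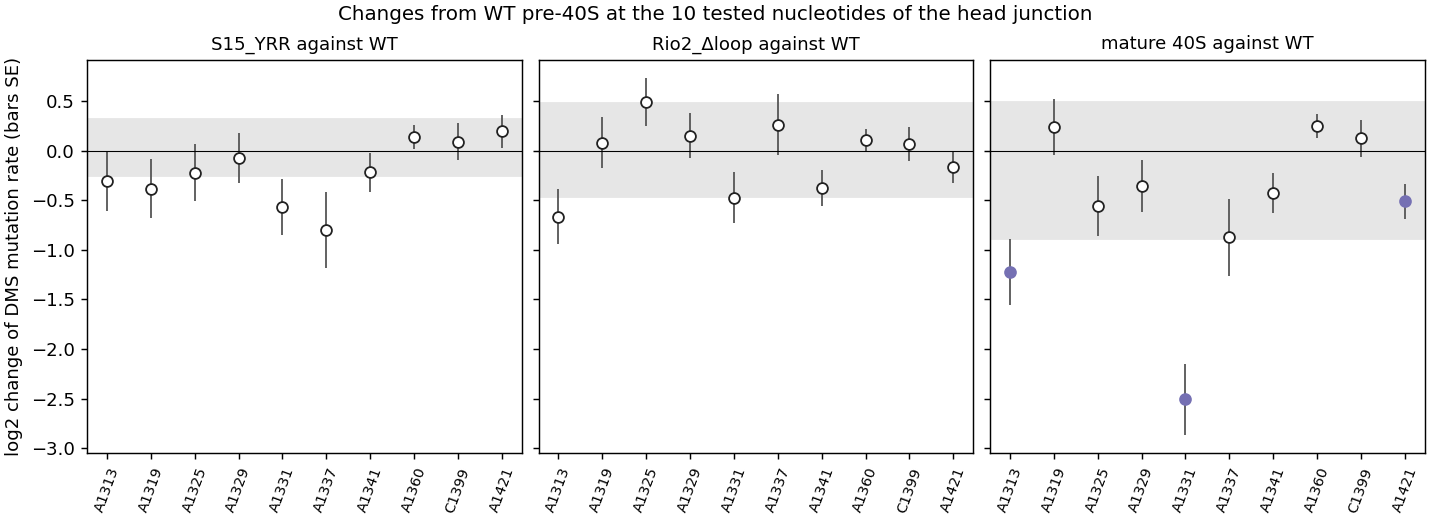
log2 change of the DMS mutation rate (y axis, bars SE from edgeR) from WT pre-40S at the 10 tested nucleotides (x axis) for S15_YRR, Rio2_Δloop and mature 40S. Filled points passed the adjusted threshold, and the grey band spans the middle 80% of the tested nucleotides outside the stretch; A1331 at -2.51 and A1313 at -1.22 lie below the band in mature 40S, and no point is filled in the mutants.

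The 59 nucleotides that did not pass the filter were compared in a fit of all 776 A and C. There 37 of 776 (4.77%) differed between mature 40S and WT, among them 2 of the 69: A1331 and A1348, the latter with a log2 change of -1.24. A1313, A1421, A1325 and A1337 passed in none of the comparisons of that fit. The subtracted signal of A1348 was 0.0525 ± 0.128 points in WT and 0.0512 ± 0.130 in mature 40S. In the untreated libraries of set 1 its rate was also lower in mature 40S, by -1.79 on the log2 scale (adjusted p = 0.0179). Fitted jointly with the untreated libraries, A1348 changed by -0.17 (adjusted p = 0.941), so its call did not hold. Over all untreated libraries, 0 of 160 positions of the stretch differed between mature 40S and WT, beside 5 of 1640 (0.305%) over 18S. An unadjusted p under 0.05 was found at 14 of the 160 and at 180 of the 1640.

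C1274 lies in helix 34 beside the decoding site. Its signal was -0.511, -0.148, 0.221, -0.106 and 0.111 points in WT and 0.822, 1.66 and 1.23 in mature 40S, with no overlap. In Rio2_Δloop it was 0.293, 0.536, 0.436 and 0.539, also above all WT replicates. The S15_YRR replicates gave 1.58, -0.459 and 0.545. Of these, 1.58 and 0.545 were above all WT replicates, and -0.459 was within the WT range. DMS rates before subtraction overlapped, from 0.365% to 2.33% in WT and from 1.37% to 3.09% in mature 40S. Untreated rates at C1274 were high, from 0.513% to 2.22%, and it did not pass the filter. In the fit without the filter its DMS rate in mature 40S changed by 0.94 on the log2 scale (SE 0.333), with an edgeR adjusted p of 0.121, so the change did not pass the threshold.

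Counted by reactivity, 3 of the 69 did not overlap between mature 40S and WT, where 10.2% of 776 did not: C1274, A1344 and A1382, all higher in mature 40S. Between S15_YRR and WT 4 did not overlap (C1332, A1382, A1421 and C1441, all higher in S15_YRR; background 7.09%), and between Rio2_Δloop and WT only C1274 did not (background 6.7%). Each of these shares is below its background. At A1344 and A1382 all WT reactivities were below 0 (highest -0.0187 and -0.0365), and the mature ones reached only 0.189 and 0.162. In S15_YRR the reactivities of C1332, A1382 and C1441 reached only 0.114, 0.146 and 0.124. Leaving out WT replicate 1 moved the count for mature 40S to 7 of 69, with A1331, A1313 and C1365 lower and A1360 added among the higher, and the background to 14.4%. For Rio2_Δloop it moved the count to 2, with A1331 lower, and the background to 7.73%.

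A secondary structure was predicted from the sequence alone with RNAfold, at -55.9 kcal/mol. It is not the structure in the particle, and with 20 flanking nucleotides on each side only 89 of 181 positions kept their partner. In this prediction A1360, C1399 and A1341 were unpaired with or without flanks, and A1331 was paired in both. A1421 and A1329 changed state between them. The 25 unpaired nucleotides had a median signal of 0.153 points and the 44 paired ones 0.0356. These sets differ in base, with 19 A among the unpaired and 19 among the paired. Over A alone the medians were 0.187 unpaired and 0.107 paired, with 7 above 0.2 points in each. Over C alone they were 0.0869 (6 unpaired) and -0.00519 (25 paired). Above 0.2 points were 8 of the 25 unpaired and 8 of the 44 paired A and C.

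Several bases of the stretch are naturally modified in yeast, and some modified bases leave mutations without DMS. Untreated rates at C1280, which carries an acetyl group, were 2.55% ± 0.601 in WT (SD, n = 5) and 2.96% ± 1.10 in mature 40S (n = 3). At U1269, a ribose-methylated site, they were 2.95% ± 1.21 and 2.53% ± 1.00. U1415, a pseudouridine, had 1.00% ± 0.846 and 1.20% ± 0.883, and within WT it was 1.87% to 1.98% in set 1 and 0.334% to 0.415% in set 2. The ribose-methylated G1271 had 0.996% ± 0.380 and 0.766% ± 0.386, and G1428 had 0.494% ± 0.148 and 0.398% ± 0.0718. Within WT the untreated rates of set 1 were above those of set 2 at the modified sites of the stretch. Means over the stretch are given beside this. The mean untreated rate over A and C of the stretch was 0.449% and 0.498% in the WT libraries of set 1. In those of set 2 it was 0.370% and 0.438%. Over A alone these means overlapped, with 0.376% and 0.427% against 0.325% and 0.407%. The share of all positions with such a difference was not counted, so it cannot be told whether the difference is particular to modified sites. Without WT replicate 1 the WT means were 2.47% at C1280, 2.50% at U1269, 1.15% at U1415, 0.935% at G1271, 0.443% at G1428 and 0.715% at U1290. None of the 5 sites above differed between mature 40S and WT by edgeR, where adjusted p was 0.599 to 0.995. The pseudouridine U1290, with a lowest depth of 731, had 0.842% ± 0.361 and 1.19% ± 0.758 and was not tested.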

How the data were processed

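DMS-MaPseq was read from 30 libraries, a DMS-treated and an untreated one for each of 15 replicates. The deposited profiles gave mutations, read depth and effective depth as counts, per the file headers, and a mutation rate as a fraction; mutations divided by effective depth matched the deposited rate within 5e-07. The aligner, the counting software and the genome build are not given in the sources used here. Positions follow the deposited reference of 2012 nucleotides, of which 1800 are 18S; reads of the many rDNA copies cannot be told apart.

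Mutation counts of the 15 DMS libraries were fitted together with edgeR 4.0.16 (quasi-likelihood, robust), with the log of effective depth times a library scale (median of ratios) as offset, at 115 A and C of 18S with depth of at least 1000 and a DMS rate of at least 2 times the untreated rate averaged over the particles. The 6 comparisons each used Benjamini-Hochberg adjustment over these 115, with a threshold of 0.05. Reactivity is the subtracted rate divided by the mean of the subtracted rates between the 90th and 98th percentiles of the library pair. The fit was tested on simulated data. DESeq2 1.42.0, limma 3.58.1 (pseudocount 0.1) and the other alternatives of the closing section were run on the same counts. RNAfold came from ViennaRNA 2.7.2.

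The nucleotides named are those past the threshold in any comparison, the 12 with the highest mean signal, those whose groups do not overlap with a mean reactivity of at least 0.5, and the modified sites; A1344, A1348 and the other members of the no-overlap and no-filter counts were chosen after their values were seen and are named because those counts are small. The stretch, the lists and the tests were chosen with earlier results of these data known.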

Additional observations from a re-analysis of the deposited data

Results flagged for a closer look

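In 3 of 30 groups of replicates tested (the 14 nucleotides named and the mean over A of the stretch, each in the 5 WT and the 4 Rio2_Δloop replicates), 1 replicate stood farther from the others than Dixon's 95% value allows; chance sets apart about 1 in 20 groups. At A1325 the signal in WT replicate 1 was -0.724 points. At A1325 the signal in Rio2_Δloop replicate 3 was 0.555 points. At A1401 the signal in WT replicate 4 was 1.10 points. The cause was not tested.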

How the results depend on the processing

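Calls among the nucleotides of the stretch are counted here for mature 40S against WT, against Rio2_Δloop and against S15_YRR in that order, where the reported counts are 3, 3 and 2. DMS counts fitted jointly with the untreated libraries, with the DMS and untreated library of a replicate as a block, gave 0, 0 and 0. Limma gave 0, 0 and 1, no signal filter 2, 1 and 1, the 90th to 98th percentile scale 2, 1 and 1, and a depth of at least 2000 gave 1, 3 and 2 (A1313 then goes untested). For mature 40S against WT, 26 of 115 passed over 18S in the reported fit. The joint fit gave 21 of 115, limma 16 of 115 and no signal filter 37 of 776. The percentile scale gave 21 of 115, and a depth of at least 2000 gave 23 of 93. The lowest and highest counts in the stretch over single omissions were 1 and 3 in each of the 3 comparisons. Over 18S they were 20 and 27 of 115 for mature 40S against WT. The library set as a term gave 1 call for Rio2_Δloop against WT (A1331) and 1 for S15_YRR against Rio2_Δloop (A1337), and leaving out both libraries that stand alone also gave 1 for the latter; all other settings gave 0 for the mutant comparisons.

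Alternatives chosen after seeing the data removed the signal filter as well. The joint fit then gave 1 (A1436), 0 and 0, and in set 1 alone 0, 0 and 0. The DMS libraries gave 2, 1 and 2 in set 1, 5, 1 and 2 with the set as a term, and 2, 1 and 1 without WT replicate 1. The change of A1313 against WT reversed to 0.0644 in the joint fit and to 0.204 in it without the filter. A1331 was called against all 3 particles in every fit except the joint fits and, for all 3, limma. The untreated rates, with 0 calls reported, gave 2 in set 1 (U1310 and A1348), 3 with the set as a term and 1 with a replicate block across particles. The causes were not tested.

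Replicate numbers did not pair the particles: 6 of 19 same-numbered pairs had a correlation over 0.1 (range -0.292 to 0.314). With the number as a block across particles the calls were 2, 2 and 2. Depth kept 4 A and C out, and no helix boundaries were used.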
